A study of Rattus norvegicus with 15 samples.

Results

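A set of 23 annotated blood features had low medians at both 6 h and 12 h after clot induction in rats. Their medians were higher in the sham group and at 1 h and 72 h. They were chosen from the deposited normalised read counts in 3 steps. A feature needed a value of at least 50 in 3 or more of the 15 libraries, which 4707 of the 15043 annotated features met (17599 features in the whole table). The median of each group was then taken on the log2(value + 1) scale. A feature was kept where the 6 h and 12 h medians each lay at least 1 log2 unit, a factor of 2, below each of the sham, 1 h and 72 h medians. The same measured values therefore chose the members, and their fall at 6 h and 12 h is a description with no test. The 23 members are 0.489% of the annotated features that met the level, and the opposite rule, a rise of the same size at both times, found 47.

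The libraries come from whole blood of male Sprague-Dawley rats, 6 to 8 weeks old and 250 to 300 g in weight, in a model of deep venous thrombosis. There were 3 libraries in each of 5 groups. The sham group is placed by the labels at 0 h, and the others were sampled 1 h, 6 h, 12 h and 72 h (labelled 3d) after modelling. No genetic change or drug is given in the labels, and the sources used here do not say how the clot was made, whether animals were pooled or at what hour blood was drawn. The titles of the sham, 1 h and 72 h libraries (9) contain the mark A&B, and those of the 6 h and 12 h libraries (6) contain the mark C. What the mark stands for is not said in the labels, and for the members, the time of sampling (6 h and 12 h) and whatever it stands for cannot be told apart. Replicates are numbered without naming animals, so a p-value here reflects the spread among libraries, part or all of which may be technical.

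Deep venous thrombosis is the formation of a clot in a deep vein, in which platelets, fibrin, red cells and white cells take part. Blood drawn away from the clot carries RNA of reticulocytes, platelets, neutrophils, lymphocytes and monocytes, and the cell mix of blood shifts within hours of an injury and over the day. In whole blood, fewer cells of a type and less RNA per cell cannot be told apart. The files do not pair their identifiers with gene symbols, and the reference tables matched 0 of them. Neither what the members encode nor the identity of the sampled blood cells could be read from markers. The members are therefore numbered 1 to 23 in order of their fall, which is the lowest of the sham, 1 h and 72 h medians minus the highest of the 6 h and 12 h medians, in log2 units. The deepest 2 are given by identifier.

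The libraries held 29.2 to 43.3 M recovered reads (M, mega-reads). Apart from 5 dominant features, each above 1% of reads, 4.67 to 7.65 M were left per library. The members together received 563 to 6623 reads per library. Of the 23 members, 12 had under 10 reads in at least 1 library. The factor by which the authors divided each library ran from 0.584 to 2.67, and the library with the highest factor, 12 h replicate 3, stood apart from the other 5 libraries at 6 h and 12 h in most members. Results that rest on it are given with and without it.

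Across the set, the median level of the members relative to their sham, 1 h and 72 h medians was -1.62 log2 units at 6 h and -1.54 at 12 h. The sham, 1 h and 72 h medians of the members had central values of 0.01, -0.01 and -0.02 on that scale. The scale is centred on these 3 medians, so central values near 0 follow largely from it. Single members ran from -0.47 to 0.48 in sham, from -0.63 to 0.95 at 1 h and from -0.96 to 0.48 at 72 h. The size of the fall was 6.42 log2 units in member 1, 1.68 in member 2 and 1.45 in member 3, and ran from 1.00 to 1.23 in the other 20. The first 2 sizes depended on single libraries and on the use of medians. In member 1 the fall was 2.78 without 12 h replicate 1 or without 12 h replicate 2, and 1.93 with means in place of medians. In member 2 it was 0.62 without 12 h replicate 1, 0.83 without 12 h replicate 2 and 0.92 with means, each below the threshold of 1. The last 2 members inside the threshold had falls of 1.04 and 1.00, and the first 2 features outside it 0.997 and 0.960. In all, 6 features lay between 0.9 and 1.

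**Figure D1:**
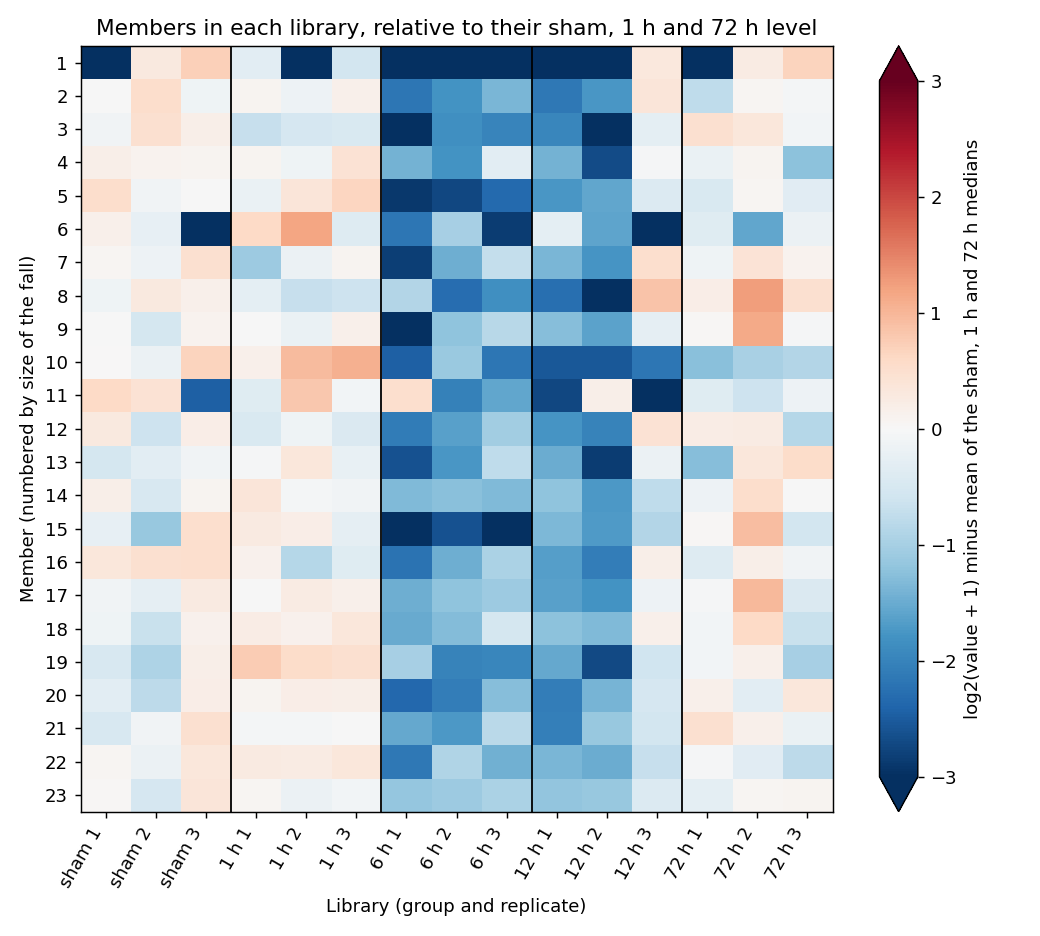
Each row is a member, numbered by the size of its fall, and each column a library; colour is log2(value + 1) minus the mean of that member's sham, 1 h and 72 h medians, with colours saturated at the ends of the scale. The 3 libraries at 6 h and replicates 1 and 2 at 12 h are low in most rows, while 12 h replicate 3 has a median of -0.30 over the members, and members 6 and 11 do not follow the other rows.

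Member 1, ENSRNOG00000023397, differed from all the others in being either present or at 0. In sham its normalised read counts were 0, 155 and 205. At 1 h they were 101, 0 and 84.5, and at 72 h they were 0, 149.6 and 198. At 6 h all 3 libraries were at 0, and at 12 h the values were 0, 0 and 155.
The feature thus had reads in 7 libraries (84.5 to 205, or 76 to 414 reads) and none in the other 8, with nothing between. Libraries at 0 occurred in every group, including 1 sham, 1 of the 1 h and 1 of the 72 h libraries. A count of 0 allows up to 3 reads, which in the 3 libraries at 6 h is a value of 3.22 on average. With the sham mean of 119.9 ± 107 (SD, n = 3) taken as exact, the 6 h mean was at least 37.3-fold lower. Sham replicate 1 was itself at 0, so this bound does not allow for the spread in sham. Its fall of 6.42 log2 units is a difference between medians of such on-or-off values. Among the 4707 annotated features at the required level, 7 (0.149%) had no reads in 5 or more libraries and 50 or more in another 5.

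Member 2, ENSRNOG00000014610, was measured in every library. Its normalised read counts were 151, 218 and 139 in sham, 159, 137 and 167 at 1 h and 89.5, 157 and 145 at 72 h. At 6 h they were 32.9, 42.9 and 57.9, and at 12 h they were 33.3, 44.5 and 195. The 3 libraries at 6 h and the first 2 at 12 h lay below every sham, 1 h and 72 h library, while 12 h replicate 3 lay within the sham range. Group means (± SD, n = 3) were 169 ± 42.6 (sham), 154 ± 15.8 (1 h), 44.6 ± 12.6 (6 h), 90.9 ± 90.2 (12 h) and 130.4 ± 36.0 (72 h).

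Member 3 was already lower at 1 h. It had 119.6, 178 and 145 normalised read counts in sham and 79.4, 89.2 and 93.0 at 1 h. It then had 15.1, 35.0 and 31.5 at 6 h, 32.0, 13.7 and 104 at 12 h, and 179, 162 and 121 at 72 h. Every 1 h library lay below every sham and every 72 h library, and above all libraries at 6 h and the first 2 at 12 h.
Member 16 was also lower at 1 h than in sham, where it had its highest values. Its values were 614, 676 and 695 in sham, 535, 269 and 378 at 1 h, and 372, 548 and 450.2 at 72 h. At 6 h they were 104, 175 and 252, and at 12 h 153, 115 and 545. The sham libraries did not overlap with any other group, the 1 h and 72 h libraries overlapped with each other, and 12 h replicate 3 reached the level of the 1 h and 72 h libraries.

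Members 14 and 21 were the only ones whose 9 sham, 1 h and 72 h libraries all lay above all 6 libraries at 6 h and 12 h. Member 14 had the most reads of the set and so the smallest counting error. Its normalised read counts were 790.4, 507 and 744 in sham, 904, 674 and 656 at 1 h, and 632, 1018 and 694 at 72 h. At 6 h they were 281, 294 and 279.6, and at 12 h 303, 214 and 415. The 3 libraries at 6 h agreed closely, with a mean of 285 ± 7.62 (SD, n = 3), and the highest at 12 h lay under the lowest sham library.
Member 21 had 54.8 to 108 in the sham, 1 h and 72 h libraries. It had 26.1, 22.6 and 43.6 at 6 h and 17.9, 34.3 and 52.7 at 12 h, so its groups were separated by a small gap. Complete separation of this kind held for 2 of 23 members, beside 0.701% of all annotated features at the required level. Without 12 h replicate 3 it held for 15 of 23, beside 2.57%. Both counts follow from the choice of members and support nothing further.

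Members 5 and 15 had lower values at 6 h than at 12 h. Member 5 had 83.7, 53.9 and 56.9 normalised read counts in sham, 50.3, 74.7 and 91.1 at 1 h, and 42.1, 59.9 and 45.4 at 72 h. It had 6.86, 7.90 and 10.7 at 6 h against 16.6, 18.8 and 43.0 at 12 h. All 3 libraries at 12 h lay above all 3 at 6 h.
Member 15 had 86.7, 46.1 and 145 in sham, 123, 118 and 84.5 at 1 h, and 105, 197 and 70.2 at 72 h. It had 6.86, 15.8 and 12.2 at 6 h and 39.6, 30.8 and 55.0 at 12 h, again with no overlap. The test of these differences is given with the comparison of 12 h and 6 h.

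Member 10 was the member with the lowest 72 h level relative to sham. Its normalised read counts were 64.8, 57.0 and 103 in sham and 71.5, 125 and 136 at 1 h. They were 11.0, 29.4 and 13.6 at 6 h, 10.2, 10.3 and 13.5 at 12 h, and 26.3, 32.5 and 34.4 at 72 h. The 72 h libraries lay below all sham and 1 h libraries, and 12 h replicate 3, high in most members, was as low here as the other libraries at 12 h.
Member 19 also had its highest values at 1 h. It had 27.9, 20.3 and 44.6 in sham, 67.5, 58.2 and 55.4 at 1 h, and 36.8, 43.3 and 19.3 at 72 h. At 6 h it had 19.2, 9.03 and 9.30, and at 12 h 12.8, 5.14 and 25.4. All 1 h libraries lay above all sham and 72 h libraries.

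Members 6 and 11 went against the rest of the set within groups. Member 6 had 195, 147 and 15.5 normalised read counts in sham, 267, 397 and 134 at 1 h, and 137, 59.2 and 156 at 72 h. It had 38.4, 86.9 and 23.6 at 6 h and 143, 58.2 and 15.3 at 12 h. Member 11 had 201, 180.4 and 23.3 in sham. Its values were 102, 234 and 125 after 1 h and 103, 86.0 and 119.8 after 72 h, with 187, 31.6 and 44.3 at 6 h and 19.2, 149 and 15.7 at 12 h. In both, sham replicate 3 lay near the lowest 12 h value, and single libraries at 6 h or 12 h lay within the range of the other groups, so the groups overlap widely.
With 15 libraries, their log2 values correlated with each other at r = 0.59, and with the median of the other members at 0.21 (member 6) and 0.14 (member 11). These correlations and those below share the libraries and their scaling factors.

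The remaining members also had lower medians at 6 h and 12 h. In member 23, the last inside the threshold, the values were 250.2, 173 and 314 in sham, 256, 215 and 232 at 1 h, and 201, 253 and 257 at 72 h. They were 109.7, 115 and 126 at 6 h and 107, 111 and 184 at 12 h. Here too 12 h replicate 3 was the only library at 6 h or 12 h to reach the lowest sham value.
Member 8 had the largest ratio between libraries at 12 h after member 1, with 11.5, 5.14 and 108. Its other values were 53.8, 72.6 and 65.3 (sham), 47.7, 35.9 and 37.6 (1 h), 31.5, 11.3 and 15.7 (6 h), and 67.1, 141 and 82.6 (72 h). Member 17 followed the median of the other members most closely (r = 0.95 over 15 libraries). It had 78.7, 70.3 and 103 (sham), 84.7, 101 and 94.9 (1 h), 30.2, 36.1 and 39.3 (6 h), 26.9, 24.0 and 76.7 (12 h), and 82.9, 168 and 63.3 (72 h).
In 5 of the members not yet described by library (4, 7, 9, 12 and 13), sham medians ran from 44.5 in member 13 to 98.9 in member 12. Their 6 h medians ran from 15.8 in member 13 to 29.4 in member 9, and their 12 h medians from 17.9 in member 4 to 28.1 in member 9. In the other 3 (18, 20 and 22), sham medians ran from 36.9 in member 20 to 66.8 in member 22. The 6 h medians of these 3 ran from 10.2 to 22.9 and the 12 h medians from 17.1 to 24.3. Overlap with the sham, 1 h and 72 h libraries in members 4, 7, 13 and 18 came from 6 h replicate 3 as well as 12 h replicate 3.

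**Figure D2:**
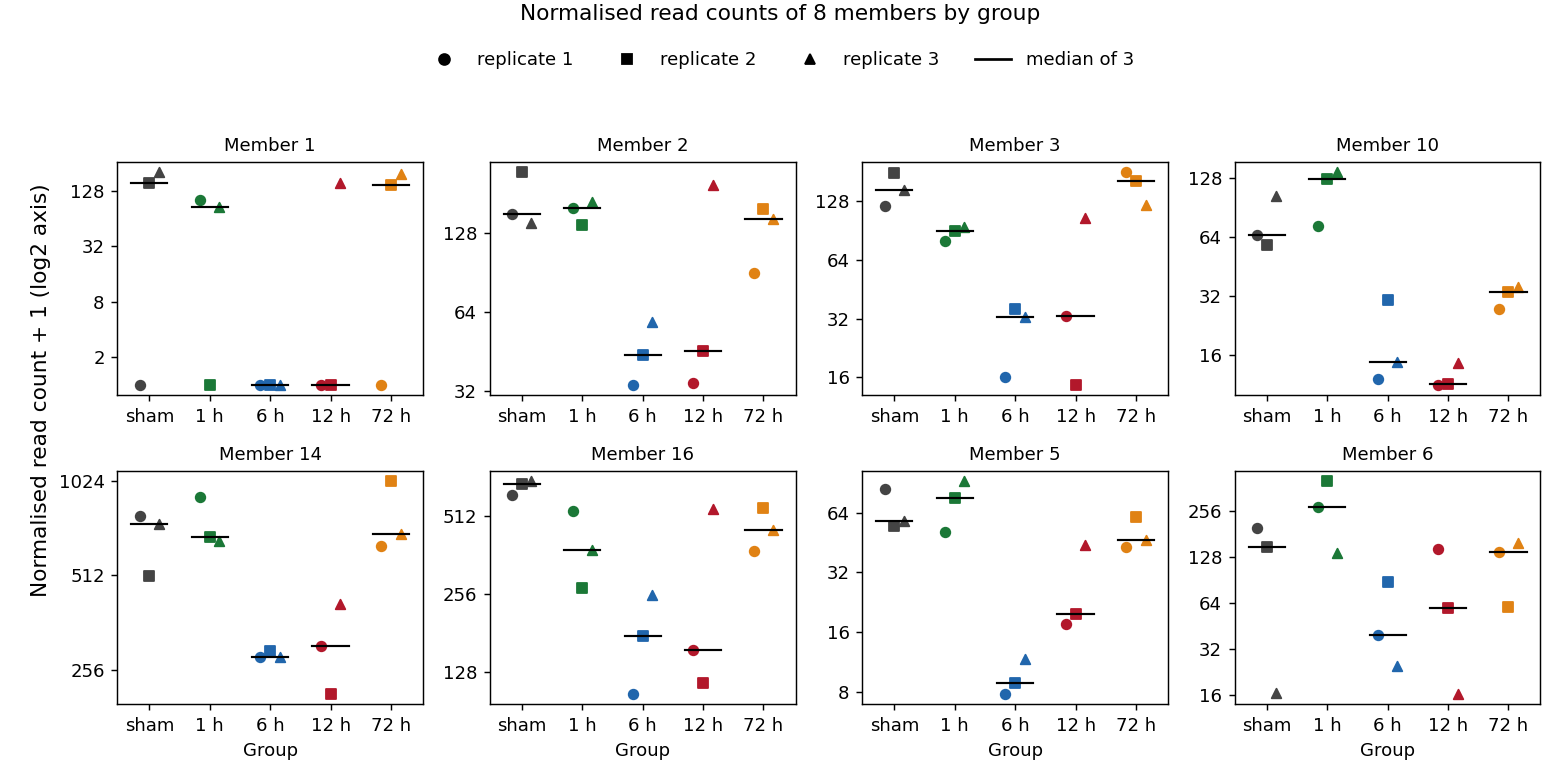
Normalised read counts plus 1 on a log2 axis for 8 members; each point is a library, its shape the replicate number, and the bar is the median of 3. Member 14 separates the 6 h and 12 h libraries from all others, member 1 is present or at 0 in nearly every group, and the triangle at 12 h (replicate 3) lies far above the other libraries at 12 h in members 1, 2, 3 and 16 but not in member 10.

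The level of 12 h replicate 3 touches the whole set. It was the highest of the 6 libraries at 6 h and 12 h in 20 of 23 members, and in 18 of 23 it was at or above the lowest sham, 1 h or 72 h library. In 13 of 23 members it was at least 2 times each of the other libraries at 12 h. The same held for 12.9% of the annotated features at the required level. A low median at 12 h leaves the highest library free, so the choice of members favours such counts, and nothing is read from them. The median level of the members relative to sham, 1 h and 72 h was -0.30 log2 units in 12 h replicate 3. It lay between -2.16 and -1.33 in the other 5 libraries at 6 h and 12 h. In the 9 sham, 1 h and 72 h libraries it lay between -0.17 and 0.18. Without the authors' scaling, per M reads outside the 5 dominant features, the members summed to 428 to 1072 reads in the sham, 1 h and 72 h libraries and to 103 to 261 in those 5 libraries. The sum of 866 in 12 h replicate 3 lay within the range of the sham, 1 h and 72 h libraries, whereas its scaled level lay below all 9 of them.

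The comparisons of 6 h and 12 h with sham were used in choosing the members and are given as description. The median log2 difference of the members from sham was -1.58 at 6 h and -1.21 at 12 h, against -0.04 and -0.06 over the 11117 features tested, and all 23 were below sham at both times. At 6 h, 4 members passed adjusted p 0.05 in limma, beside 0.486% of the features tested, and in 19 all libraries lay below sham, beside 14.2%. At 12 h, 1 member passed, beside 0.072%, and in 8 all libraries lay below sham, beside 9.73%. The members were chosen for low values in these same groups, so counts above the rates over all features follow from the choice. They are no test of the fall, and nothing is read from them. Without 12 h replicate 3 the median at 12 h was -1.69.

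The choice of members did not fix 4 other comparisons, each between groups with the same mark in their titles. It used the medians of all 5 groups, so the sizes of these differences are not independent of the choice. Between 12 h and 6 h, no member passed adjusted p 0.05 in limma (0 of 23, with 2 at unadjusted p under 0.05), beside 0% of the 11117 features (423 at unadjusted p under 0.05). The 2 were member 5, higher at 12 h by 1.41 log2 units (SE 0.401, adjusted p = 0.990 in limma), and member 15, higher by 1.79 (SE 0.454, adjusted p = 0.990 in limma). Over the alternatives tried, the adjusted p was 0.301 to 1 for member 5 and 0.262 to 1 for member 15. These were also the 2 members with all libraries at 12 h above all at 6 h, beside 2.83% of the features tested, and none had all below, beside 2.88%. The median member difference was 0.32, with 20 of 23 above 0, against -0.06 and 45.0% over all features. That direction rested on 12 h replicate 3: without it the median was -0.17 and 7 of 23 were above 0. edgeR's quasi-likelihood test called 0 members (3 at unadjusted p under 0.05), beside 0% of the features. DESeq2, which called 0.135% of the features, called member 1 higher at 12 h (adjusted p = 2.23e-05), on reads in a single library. Without that library all its 6 h and 12 h values were 0, which leaves no difference to test. In limma with all libraries its adjusted p was 0.990.

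Between 1 h and sham, 0 of 23 members passed in limma and 0 had an unadjusted p under 0.05, beside 0.135% of the features (810 at unadjusted p under 0.05). edgeR and DESeq2 also called 0 members, with 0 at unadjusted p under 0.05 in each, beside 0% and 0.77% of the features. The differences ran from -0.80 in member 16 to 1.64 in member 6, with a median of 0.14 (14 above 0), against 0.02 and 51.5% over all features. That direction turned with the scaling: with libraries set to equal totals outside the dominant features the median was -0.30 (6 above 0), where all features had a median of -0.40. All 1 h libraries lay above all sham libraries in 1 member (19), beside 9.6%, and below them in 3 members (3, 8 and 16), beside 11.3%. These members did not pass the test, with log2 differences of 1.01 in member 19 and -0.74, -0.65 and -0.80 in members 3, 8 and 16.

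Between 72 h and sham, 0 of 23 members passed in limma, with 1 at unadjusted p under 0.05, beside 0% of the features (806 at unadjusted p under 0.05). edgeR and DESeq2 called 0, each with 1 at unadjusted p under 0.05, beside 0% and 0.254% of the features. The median was 0.09 (14 above 0), against -0.05 and 46.3% over all features. It was -0.27 (4 above 0) with equal totals, where all features had -0.41. It was -0.13 (8 above 0) without 72 h replicate 2 and -0.01 (11 above 0) without sham replicate 2, so its direction is not settled. Member 10 had the largest difference, -1.20 (SE 0.406, limma adjusted p = 0.576), with a mean of 31.1 ± 4.23 at 72 h and 74.9 ± 24.5 in sham (SD, n = 3). It and member 16 had all 72 h libraries below all sham libraries, beside 9.85% of features, and none had all above, beside 7.78%.

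Between 72 h and 1 h, 0 of 23 members passed in limma, with 1 at unadjusted p under 0.05, beside 0.018% of the features (1002 at unadjusted p under 0.05). That member was again member 10, whose log2 difference was -1.76 (SE 0.406, adjusted p = 0.229 in limma) from a mean of 111 ± 34.6 at 1 h (SD, n = 3). It was past the threshold in DESeq2 (adjusted p = 0.0127), which called 0.622% of the features, and in limma with the log2 factor added as a covariate (adjusted p = 0.0275), which called 1.79%, and its adjusted p over all alternatives ran from 0.0127 to 0.931. edgeR called 0 members (1 at unadjusted p under 0.05), beside 0.009% of the features. The median difference over the members was 0.01 with 12 above 0, against -0.02 and 48.1% over all features. Its sign changed with single libraries: it was -0.36 (8 above 0) without 72 h replicate 2 and between -0.08 and -0.03 without any 1 of the 3 libraries at 1 h or without 72 h replicate 3. All 72 h libraries lay above all 1 h libraries in 2 members (3 and 8), beside 7.95%, and below them in 3 (10, 19 and 22), beside 8.86%.
Comparisons that miss the threshold do not show equal levels: the median SE of a member's difference was 0.49 log2 units.

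**Figure D3:**
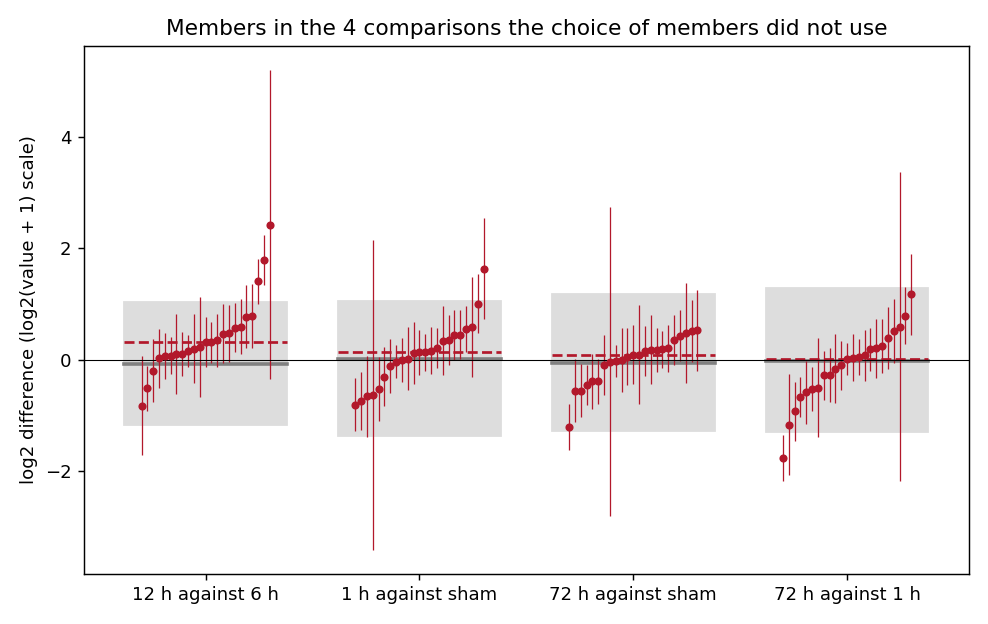
Log2 differences of the 23 members (points, with SE from limma) in 4 comparisons that the rule did not make, sorted within each. The rule used the medians of all 5 groups, so they are not independent of it. The dashed line is the members' median. Grey shows all 11117 features, with a line at the median and a box from the 5th to the 95th percentile. The medians of the members are 0.32, 0.14, 0.09 and 0.01, and no member passed adjusted p 0.05.

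By group, the highest of the sham, 1 h and 72 h medians was sham in 5 members, 1 h in 10 and 72 h in 8, and the lowest was sham in 8, 1 h in 8 and 72 h in 7. The lower of the 6 h and 12 h medians was 6 h in 14 members and 12 h in 8, and in member 1 both were 0.

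The SD of the members within groups had a median of 0.66 log2 units (0.30 in member 23 to 3.72 in member 1). Their counting SD had a median of 0.27. Over the annotated features at the required level the SD within groups had a median of 0.49. The members were lower features, with mean values whose median was 61.2, against 92.3 over those features. No counting SD was computed for those features, so 0.66 and 0.49 are not compared at like levels. The deviations of the members from their group means were correlated: the median r over the 253 pairs was 0.51 (-0.81 to 0.92), and 0.58 without members 6 and 11. These points share library and scaling factor, and the members share their low groups by choice.

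Most members were higher in libraries with a higher factor. Within groups, the slope on the log2 factor had a median of 0.74, with 21 of 23 slopes above 0, against 0.13 and 56.6% over the 4707 annotated features. The 2 slopes below 0 were those of members 6 (-1.31) and 11 (-1.08). Without 12 h replicate 3 the median slope was 0.36 (21 of 23 above 0), against 0.10. Among the 9 sham, 1 h and 72 h libraries alone it was 0.39 (20 of 23), against 0.09, and among the 5 remaining libraries at 6 h and 12 h it was 0.45 (17 of 23), against 0.03. The factors at 6 h and 12 h ran from 0.584 to 1.40 without replicate 3 of 12 h, whose factor was 2.67. In the other groups they ran from 0.726 to 1.57. The median levels of the members differ between these groups by the choice of members. Choosing by medians also shapes the deviations within groups, so the slopes beside those of all features are description only. The part of the factor in the members' fall was not tested.

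**Figure D4:**
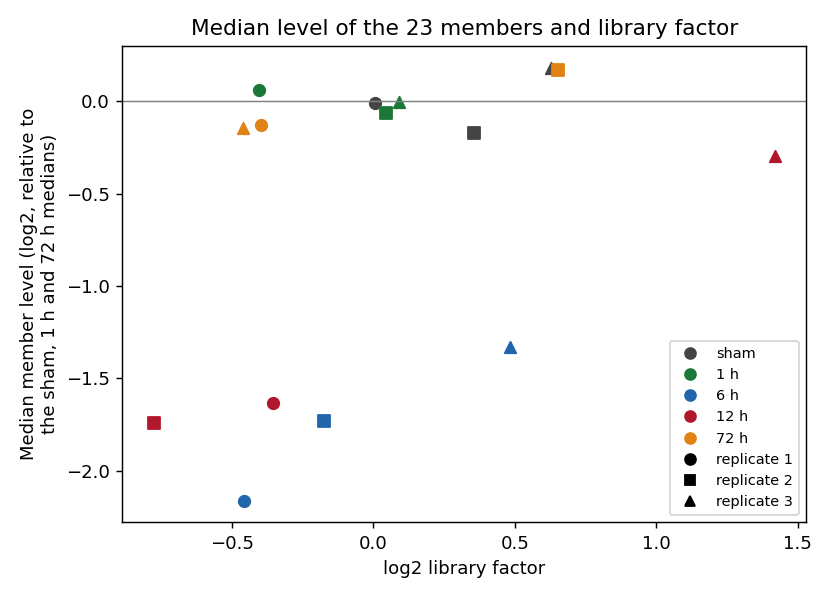
Median level of the 23 members in each library, relative to their sham, 1 h and 72 h medians (log2), against the log2 library factor; colour is the group and shape the replicate number. The 9 sham, 1 h and 72 h libraries lie between -0.17 and 0.18. At 6 h and 12 h, 5 libraries lie between -2.16 and -1.33, and 12 h replicate 3, at the highest factor, lies at -0.30.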

How the data were processed

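Whole blood was kept in PAXgene tubes, and 1 ug of total RNA per library was sequenced as 150 bp pairs, per the labels' protocols. The submitters' processing notes name Bowtie 0.12.2 and Rnor_6.0 (a genome build) with no role. The sources used here do not give the counting tool, the annotation, the strand setting or the treatment of multiply matching reads, so members that share reads with a near-identical copy or an overlapping gene cannot be recognised. The deposited values are a normalised signal: the authors divided the reads of every feature by a factor, 1 per library. All values were whole multiples of 1 step per library (within 0.01), which gave whole reads and the factor; in sham replicate 1 the step is near 1 and the recovery less well tested.

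The members and lists were chosen with earlier results of these data known. The 17 gene lists could not be run without symbols (0 tested), and the rule for naming members then gives at most 2 identifiers, the deepest falls; other members are numbered and were singled out after their values were seen. The 11117 features that reached 10 in 3 libraries were tested in limma 3.58.1 (trend, robust, two-sided, R 4.3.3) on log2(value + 1), which understates changes of low features, with 15 libraries in 1 fit and Benjamini-Hochberg adjustment. edgeR 4.0.16, DESeq2 1.42.0 (recovered reads), other scalings, filters and pseudocounts, each library left out, a factor covariate and the replicate number as a block were alternatives, and all 3 tools were tested on simulated data. Deviations from group means correlated at 0.13, 0.15 and 0.45 in the 3 same-numbered pairs of 6 h and 12 h. All were above 0.1, which the other comparisons did not meet, and the replicate number was therefore also tried as a block. Differently numbered pairs were not compared, and replicate 1 of 1 h and sham reached 0.16. Whether the numbers pair the libraries is therefore not shown. The 5 features each above 1% of reads count as dominant.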

Additional observations from a re-analysis of the deposited data

How the results depend on the processing

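The number of members depended on the settings. It was 23 as reported, 15 with means in place of medians (10 of them among the 23), 156 with equal totals outside the dominant features (21 among the 23), 37 and 151 with a level of 20 or 1 in 3 libraries, and 59 and 2 with a minimum difference of 0.75 or 1.5. Left-out libraries gave 9 to 41: 15 without 6 h replicate 1, 14 and 9 without 12 h replicates 1 and 2 (10 and 5 among the 23), and 41 without 12 h replicate 3 (21 among the 23). In 14 of 24 alternatives the count stayed within 1.5 times. Member 1 was kept in all 15 left-out settings, 13 of the 23 were kept in at least 12, and member 23 in 7. With equal totals all features had a median difference from sham of -0.73 log2 units at 6 h and -0.54 at 12 h, and the members' medians there were -2.27 and -1.67. The medians against sham ran from -1.83 to -1.30 at 6 h and from -1.69 to -0.85 at 12 h over left-out libraries; these settings for the medians, and equal totals for the tests, were chosen after the data were examined. Of the 4 tested comparisons, the count of members called stayed at 0 in 17, 18, 18 and 16 of 18 alternatives for 12 h against 6 h, 1 h against sham, 72 h against sham and 72 h against 1 h. The exceptions were 1 in DESeq2 for the first, and 1 in DESeq2 and 1 with the factor covariate for the last. Leaving out a library gave 0 in all 4. With the replicate block the count was 0 in all 4, so the block changed no call. Depth limits the members with under 10 reads in a library, 12 of the 23.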

Other observations

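The same rule applied to the 1646 assembled features at the required level, which carry no annotated identifier, found 6 (0.365%). The deepest of these was, like member 1, at 0 in some libraries of several groups: its normalised read counts were 1141, 244 and 896 (sham), 0, 2462 and 2275 (1 h), 1289, 0 and 0 (6 h), 0, 0 and 627 (12 h), and 2079, 1003 and 0 (72 h). The next had 68.8, 50.8 and 34.9 (sham), 38.4, 28.1 and 22.5 (1 h), 0, 7.90 and 5.72 (6 h), 3.84, 8.57 and 58.7 (12 h), and 30.3, 26.1 and 34.4 (72 h), so that 12 h replicate 3 was again the high library of its time. These features were chosen by the same values and are given without a test.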
